A study of Mus musculus with 9 samples.

Results

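The nuclear-encoded genes of the mitochondrial respiratory chain were followed in MA-10 cells, a line derived from a mouse Leydig cell tumour that makes steroid hormone when cyclic AMP rises. Members were taken by symbol: Nduf genes of the A, B, C, S and V series, Sdha to Sdhd, Cyc1, and the Uqcr, Cox4i, Cox5 to Cox8 and Atp5 genes. Where several probes stood for a gene, the brightest by its mean over the 9 arrays was used. The symbols picked out 115 probes with a single gene name, and these gave 90 genes of the 19938 measured. They comprised 36 complex I genes, 4 of complex II, 9 of complex III, 17 of complex IV and 17 of the ATP synthase. This grouping follows the symbols, so Ndufa4, now counted as a subunit of complex IV, and its relative Ndufa4l2 stand with complex I in every count and median by complex. The remaining 7, Ndufaf1 to Ndufaf7, code for factors that assemble complex I and are not subunits, and they are given apart. A further 6 probes that carried several symbols, for Cox7c, Ndufs5 and Ndufb4, were left out, although Ndufs5 kept a probe of its own.

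The 9 Affymetrix arrays formed 3 groups of 3, all grown in serum-free medium for the 1.5 h of treatment. The first group received 10 µM forskolin, which activates adenylyl cyclase, together with 1 mM AICAR, which cells convert to an activator of the kinase AMPK. The second received forskolin alone, and the third was the DMSO control, although the titles of these samples speak of no treatment. Values were deposited on a log2 scale after RMA, so that a difference of 1 is a 2-fold change. Whether the replicates were separate cultures is not stated in the labels, so the p-values measure the spread between these arrays, which may be technical. The steroidogenic markers fitted the label: all 7 measured of 9 listed lay above the median gene, at 8.66 to 11.81 against 7.48, while 5 of 26 markers of other testis cells did and 0 of 6 germ cell markers. Among those 5 the endothelial gene Cdh5 stood at 11.96. The steroidogenic control gene Star, which carries cholesterol into mitochondria, was 1.89 log2 units higher with forskolin than in controls.

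The respiratory chain passes electrons from NADH through complex I, or from succinate through complex II, to complex III and, by cytochrome c, to complex IV, which reduces oxygen. Complexes I, III and IV pump protons, and the ATP synthase uses the gradient to make ATP. In Leydig cells the gradient and ATP of mitochondria are needed for cholesterol import and for the first step of steroid synthesis. AMPK senses a fall in cellular energy, and in muscle its lasting activation is known to raise many mitochondrial genes through the coactivator Ppargc1a. Most subunit genes lie in the nucleus, and many carry promoter elements for the factors NRF1, GABP and YY1.

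Promoter sequences are given here as a description of the members that the choice by name did not use. RefSeq promoters (assembly GRCm38.p6), from 250 bases before to 50 bases after each start, were at hand for 73 members in 78 windows and for all genes in 32851 windows. The core of the NRF1 motif, GCATGCGC, stood on either strand in 15.4% of member windows and 2.71% of all windows. The YY1 motif AAGATGGC stood in 12.8% of member windows and 2.75% of all, the ETS motif CCGGAAGT, which GABP reads, in 6.41% and 3.89%, and the cyclic AMP response element TGACGTCA in 5.13% and 1.79%. Member windows had a median of 58% G and C, against 52.7% in all windows, and the part of this difference in the motif shares was not tested. GCATGCGC overlaps its own reverse complement by 6 bases, and in 7 of the 12 members that held it both orientations were read from 1 stretch. In 8 of 10 cases the YY1 motif began 23 to 39 bases after the start and ran in the direction of the gene. Complex I held 7 of these 10, in 20.6% of its windows, and the ATP synthase the other 3, in 16.7% of its windows. Of the 73 members with a window, 44 held none of the 4 motifs, so these are traits of a minority. A match to these letters is a description of the sequence and not evidence of binding.

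Forskolin acts through cyclic AMP, and the 4 members with a full cyclic AMP response element are therefore shown, with the element in capitals.
Ndufa10 promoter, chr1:92473808-92473835, minus strand: cactcagtggTGACGTCAtggcagcgcg
Ndufa11 promoter, chr17:56717594-56717621, plus strand: ttacctttccTGACGTCAcgggcgtctc
Ndufb2 promoter, chr6:39592541-39592568, plus strand: tgcgacgcagTGACGTCAcgggccggga
Uqcrfs1 promoter, chr13:30545328-30545355, minus strand: ggcgtcgcgcTGACGTCAcaaaccctgc
The element is its own reverse complement, and in these genes it began 14 to 158 bases before the start. Ndufa10 and Ndufa11 code for accessory subunits of complex I, as does Ndufb2, and Uqcrfs1 codes for the Rieske iron-sulfur protein of complex III. Forskolin minus control was -0.01 for Ndufa10, 0.05 for Ndufa11, -0.08 for Ndufb2 and 0.01 for Uqcrfs1, and none passed the test (adjusted p 0.848 to 0.982, limma). Of all genes 0.692% passed in this comparison. The 44 members with a window but without any of the 4 motifs had forskolin minus control differences of -0.11 to 0.09.

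The NRF1 core is shown in 1 member each of complexes I, II and III and of the ATP synthase, with the motif in capitals.
Ndufa8 promoter, chr2:36049329-36049356, minus strand: cgctggagacGCATGCGCagatggtacc
Sdhb promoter, chr4:140961207-140961234, plus strand: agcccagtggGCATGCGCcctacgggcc
Uqcr11 promoter, chr10:80406808-80406835, minus strand: tcgccttcacGCATGCGCtatacgtctg
Atp5l promoter, chr9:44920965-44920992, minus strand: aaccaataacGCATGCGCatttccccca
Ndufa8 codes for an accessory subunit of complex I, Sdhb for the iron-sulfur subunit of succinate dehydrogenase, Uqcr11 for a small subunit of complex III and Atp5l for subunit g of the ATP synthase. In these 4 genes the motif began between 4 and 240 bases before the start. Over the 12 members that held the core, the median log2 difference was 0.000 for forskolin minus control, 0.032 for forskolin with AICAR minus forskolin and 0.030 for forskolin with AICAR minus control. The medians of all genes were 0.003, 0.023 and 0.025 in the same order. None of the 12 passed the test in any of the 3 comparisons, where 0.692%, 5.1% and 8.72% of all genes did.

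The promoters of the 2 members that passed the test in both comparisons of the AICAR group follow, with a YY1 motif in capitals.
Ndufs6 promoter, chr13:73328433-73328732, minus strand: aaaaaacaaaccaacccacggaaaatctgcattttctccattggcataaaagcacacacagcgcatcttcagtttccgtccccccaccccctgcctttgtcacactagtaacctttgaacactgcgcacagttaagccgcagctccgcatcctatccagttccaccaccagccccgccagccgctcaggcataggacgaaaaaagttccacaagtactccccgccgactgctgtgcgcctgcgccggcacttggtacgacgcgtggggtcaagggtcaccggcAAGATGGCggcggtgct
Ndufb7 promoter, chr8:83566508-83566807, plus strand: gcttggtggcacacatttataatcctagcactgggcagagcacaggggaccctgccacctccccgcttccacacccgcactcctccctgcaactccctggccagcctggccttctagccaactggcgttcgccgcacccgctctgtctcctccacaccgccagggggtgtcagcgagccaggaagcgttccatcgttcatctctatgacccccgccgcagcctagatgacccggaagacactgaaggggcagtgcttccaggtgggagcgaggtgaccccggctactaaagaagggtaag
The YY1 motif of Ndufs6 began at base 34 counted from the start. The window of Ndufb7 held none of the 4 motifs. Of the 10 members with a YY1 motif, Ndufs6 alone passed the test. The median difference of the 10 was 0.024 for forskolin with AICAR minus forskolin, where that of all genes was 0.023. Of all genes 5.1% passed in that comparison and 8.72% for forskolin with AICAR against control.

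The members were bright on the arrays. Their means over the 9 arrays ran between 6.68 and 13.43 log2 units, with a median of 11.13 against 7.48 for all genes, and 76 of 90 (84.4%) reached 9, against 30.6% of all genes. Brightness also depends on the probe, so it ranks signals and not amounts of RNA. All members of complexes II and III and of the ATP synthase reached 9, as did 31 of 36 in complex I, 12 of 17 in complex IV and 3 of 7 assembly factors. The 5 genes of complex IV below 9 were Cox6a2 at 8.13, Cox8c at 6.99, Cox6b2 at 6.71, Cox8b at 6.70 and Cox7b2 at 6.68, which are forms known from muscle or testis. Other tissue-restricted forms in complex IV were brighter, with Cox4i2 at 9.89 and Cox7a1 at 11.78. In complex I the genes below 9 included Ndufa4l2, at 7.65.

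With forskolin alone, the respiratory chain genes stayed close to their control values, and none passed the test. None of the 90 members passed the test for forskolin against control, at an adjusted p under 0.05 in limma's moderated test with Benjamini-Hochberg adjustment over all 19938 genes. By the same rule 138 genes passed, or 0.692%. At an unadjusted p under 0.05 there were 4 members (4.44%, all lower), against 7.27% of all genes in either direction. Of all 19938 genes 741 were higher and 709 lower at that p. In 11 members (12.2%) the groups did not overlap, against 14% of all genes. By direction these were 1 member higher and 10 lower, and 1366 and 1421 of all genes. The log2 differences spanned -0.15 to 0.09 with a median of -0.001, where all genes had 0.003. For every one of the 90 members the 95% interval of the difference lay within a 1.3-fold change in either direction. It did so for 96.7% of all genes, and for 97.9% of those with a mean of at least 9. Arrays of bulk RNA cannot tell a change in the number of cells apart from one in RNA per cell.

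By complex, the median of forskolin minus control was 0.000 for complex I, -0.008 for complex II, 0.004 for complex III, 0.008 for complex IV and -0.010 for the ATP synthase. Median centring gave -0.023 to -0.040 for these 5, where the median of all genes was -0.027. The lowest adjusted p of the members was that of Ndufa4l2, a relative of the subunit Ndufa4. Its difference was -0.10 (SE 0.035, adjusted p 0.484 in limma). Ndufv3, a subunit of the arm that binds NADH, differed by -0.10 (SE 0.039, adjusted p 0.575 in limma), and Cox7a2l, which helps complexes III and IV join, by -0.11 (SE 0.049, adjusted p 0.683 in limma). For all 3 genes the forskolin arrays lay below every control array. Cox4i2, which also had an unadjusted p under 0.05, differed by -0.15 (SE 0.067, adjusted p 0.683 in limma). This was the widest difference of the members, and its forskolin and control arrays overlapped.

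**Figure D1:**
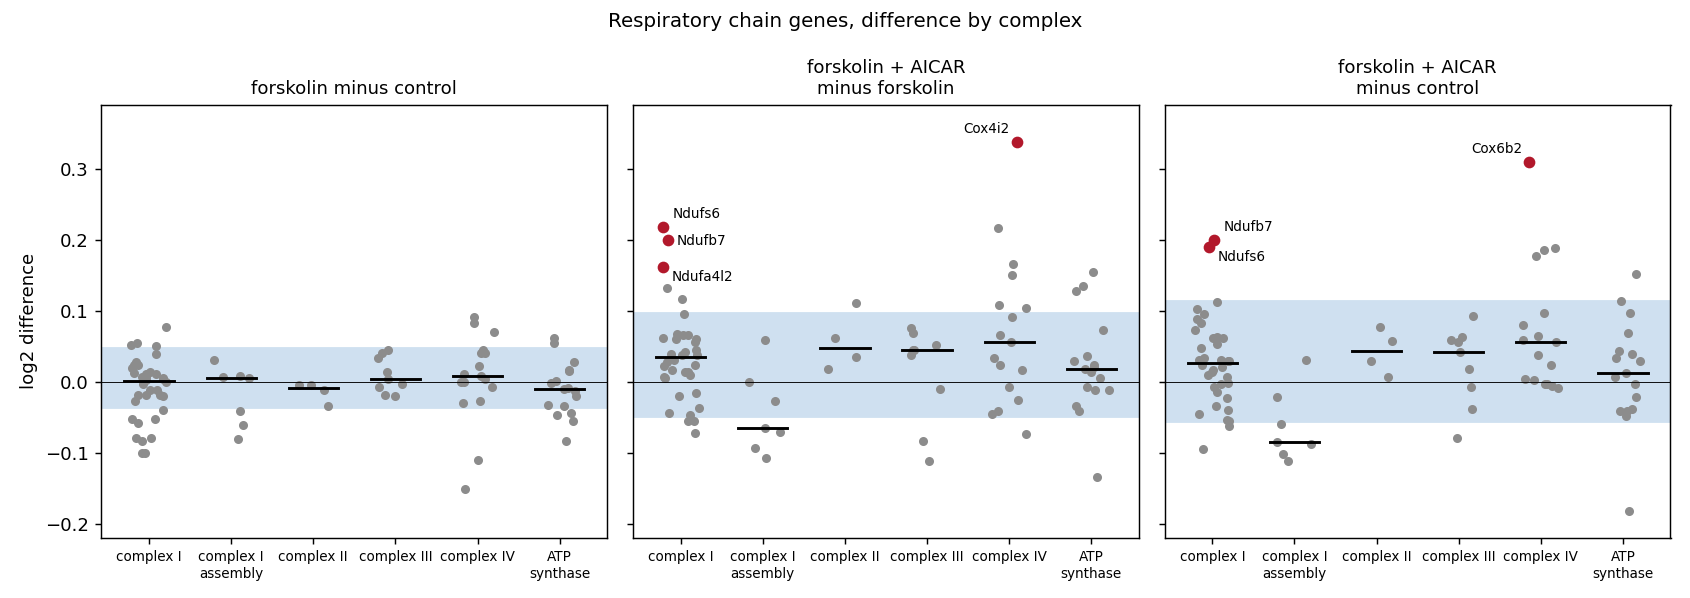
Log2 difference of each of the 90 genes (points) by complex in the 3 comparisons. Black bars are medians, blue bands run between the lower and upper quartiles of all genes, and red named points passed the test. No point is red for forskolin minus control, and the complex medians stay between -0.085 and 0.056.

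AICAR added to forskolin was followed by small rises in 4 members and a fall in none. Ndufs6, Ndufb7, Ndufa4l2 and Cox4i2 were 1.12 to 1.26 times as high with forskolin and AICAR as with forskolin alone. The 4 make up 4.44% of the members, and 5.1% of all genes passed the same test, 0.978% higher and 4.12% lower. At an unadjusted p under 0.05 there were 15 members, all higher (16.7%), against 24.1% of all genes in either direction. Of all 19938 genes 2435 were higher and 2366 lower at that p. Groups did not overlap for 23 members (25.6%), 22 of them higher, against 23.6% of all genes in either direction. By direction these were 2284 genes higher and 2423 lower. The share of members that passed in either direction lies close to that of all genes, and by direction it is 4.44% against 0.978% higher and 0% against 4.12% lower. Without AICAR replicate 1 the count was 7, without forskolin replicate 2 it was 0, without forskolin replicate 3 it was 1, and without any other array it was 2. It was 0 when the 2 groups compared were fitted alone. Over all genes the 1017 calls became 3324 without AICAR replicate 1, 575 without forskolin replicate 2 and 487 without forskolin replicate 3. They became 528 to 800 without any other array, and 496 with the 2 groups fitted alone. The comparisons share arrays: the forskolin arrays serve here and against control, and the AICAR arrays in both comparisons that hold them. Other genes moved further in this comparison: Star fell by 2.05 log2 units with AICAR (SE 0.058, adjusted p 5.21e-07 in limma), as 4 of 7 steroidogenic markers were lower and none higher. Of the 26 markers of other testis cells 2 were lower, the Sertoli gene Sox9 by -0.46 and the macrophage gene Cd68 by -0.40 (adjusted p 0.00134 and 0.00676 in limma), and none was higher. The part of these shifts in the members' differences was not tested.

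Ndufs6 codes for a zinc-binding subunit of the peripheral arm of complex I. Its log2 values were 9.72, 9.70 and 9.77 with forskolin and AICAR, 9.57, 9.49 and 9.48 with forskolin, and 9.53, 9.54 and 9.56 in controls. All 3 AICAR arrays lay above the other 6, and the forskolin and control arrays overlapped. The difference from forskolin was 0.22 (SE 0.039, adjusted p 0.0117) and from control 0.19 (SE 0.039, adjusted p 0.0189, both in limma). Without forskolin replicate 2 or 3 the first call was lost, with an adjusted p up to 0.0565, and without any 1 of the controls the second was, with an adjusted p up to 0.0644.

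Ndufb7 codes for an accessory subunit on the intermembrane side of complex I. Its values were 9.76, 9.85 and 9.86 with forskolin and AICAR, 9.65, 9.56 and 9.66 with forskolin, and 9.56, 9.66 and 9.66 in controls. Again the AICAR arrays stood above all others, and the other groups coincided. The rise was 0.20 over forskolin (SE 0.047, adjusted p 0.0421) and 0.20 over control (SE 0.047, adjusted p 0.033, both in limma). Leaving out 1 array ended the first call in 8 of 9 cases, with an adjusted p up to 0.138, and the second in 6 of 9, up to 0.112.

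Ndufa4l2 is known in human cells as a gene raised by low oxygen that lowers the use of oxygen by mitochondria. It read 7.73, 7.69 and 7.76 with forskolin and AICAR, 7.58, 7.58 and 7.54 with forskolin, and 7.65, 7.68 and 7.66 in controls. The 3 groups did not overlap, and the forskolin arrays were the lowest. Forskolin with AICAR exceeded forskolin by 0.16 (SE 0.035, adjusted p 0.0325), while its difference from control was 0.06 (SE 0.035, adjusted p 0.251, both in limma). The call was lost in 7 of 9 cases with 1 array left out, with an adjusted p up to 0.109. It was also lost with limma's trended and robust prior (adjusted p 0.0651). Ndufa4 itself differed between the AICAR and forskolin groups by 0.07 (SE 0.040, adjusted p 0.325 in limma).

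Cox4i2 codes for the form of subunit 4 of complex IV that is best known from lung and from low oxygen. It had the widest difference of all members: 10.12, 10.08 and 10.01 with forskolin and AICAR, 9.58, 9.75 and 9.87 with forskolin, and 9.86, 9.88 and 9.90 in controls. The AICAR arrays were highest, and the forskolin arrays spread widely (SD 0.147), with replicate 3 inside the control range. The difference from forskolin was 0.34 (SE 0.067, adjusted p 0.0214), and that from control 0.19 (SE 0.067, adjusted p 0.105, both in limma). Without forskolin replicate 2 or AICAR replicate 2 the adjusted p exceeded the threshold, at up to 0.0805, and with any 1 array left out the difference ran between 0.26 and 0.41. Its counterpart in most tissues, Cox4i1, gave 11.57, 11.53 and 11.54 with both agents, 11.42, 11.45 and 11.45 with forskolin, and 11.46, 11.47 and 11.47 in controls. The AICAR arrays of Cox4i1 lay above the rest too, by 0.11 over forskolin (SE 0.033), but without passing the test (adjusted p 0.0993 in limma).

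**Figure D2:**
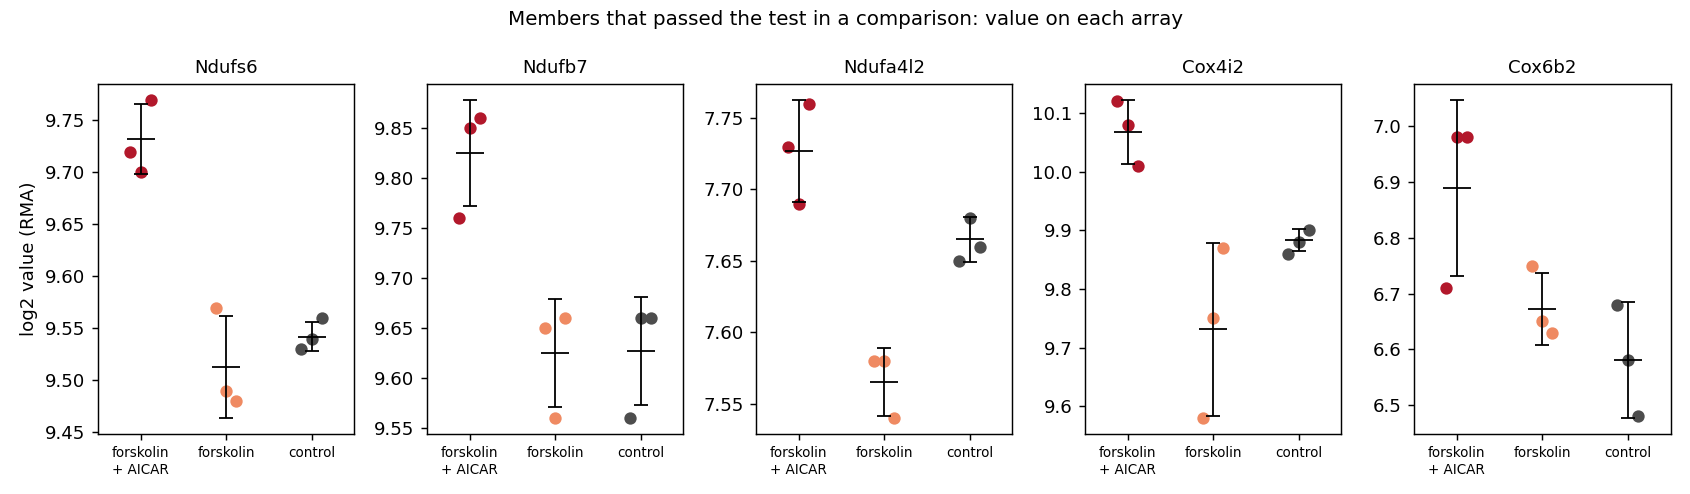
Log2 value on each array (points) of the 5 genes that passed the test in a comparison, with mean and SD (bars, n = 3), for forskolin with AICAR, forskolin and control. The vertical axes differ between genes and do not start at 0. AICAR arrays lie above the control arrays in all 5, and forskolin arrays below them for Ndufa4l2.

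Against control, 3 members passed the test with forskolin and AICAR, all higher: Ndufs6, Ndufb7 and Cox6b2. They are 3.33% of the members, while 8.72% of all genes passed, 3.04% higher and 5.68% lower. Unadjusted, 11 members (12.2%, 10 higher) had a p under 0.05, against 31.1% of all genes, and groups did not overlap for 24 members (26.7%, 21 higher), against 29.5%. Counted in either direction, both shares lie below those of all genes. At that p 3527 of all 19938 genes were higher and 2672 lower. Groups did not overlap for 21 members higher and 3 lower, and for 3035 and 2848 of all genes. By the overlap rule members were more often higher, and less often lower, than all genes. By the unadjusted p, with 10 members higher and 1 lower, they were less often higher and less often lower than all genes. The count of 3 was 0 without any 1 of the controls and 6 without AICAR replicate 1. It was 1 without AICAR replicate 2 or 3 or forskolin replicate 1, or with the 2 groups fitted alone. Over all genes the 1739 calls became 660 to 1030 without 1 of the controls and 4741 without AICAR replicate 1. They became 682 and 1077 without AICAR replicates 2 and 3, 1149 without forskolin replicate 1 and 758 with the 2 groups alone. Cox6b2, the testis form of subunit 6B, read 6.71, 6.98 and 6.98 with forskolin and AICAR, 6.75, 6.65 and 6.63 with forskolin, and 6.68, 6.58 and 6.48 in controls. One AICAR array lay close to the highest control, and this was among the dimmest members. Its difference from control was 0.31 (SE 0.081, adjusted p 0.0474) and from forskolin 0.22 (SE 0.081, adjusted p 0.154, both in limma). The call against control ended in 8 of 9 cases with 1 array left out, with an adjusted p up to 0.167.

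Weighting the arrays by their fitted reliability gave more calls among members and among all genes. With these weights 14 members passed for forskolin with AICAR against forskolin (15.6%, 13 of them higher), against 28.7% of all genes in either direction. Against control 10 passed (11.1%, 8 higher), against 33.2% of all genes in either direction. All genes were not counted by direction with these weights, so the members' split has no share to be set against. AICAR replicates 1 and 3 received weights of 0.354 and 0.319, AICAR replicate 2 one of 2.84 and forskolin replicate 2 one of 3.46, so the AICAR group rested mainly on its second array in that setting.

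The members' differences were small. Between forskolin with AICAR and forskolin they spanned -0.14 to 0.34 with a median of 0.028, where the median of all genes was 0.023, and 62 of 90 (68.9%) lay above 0, against 59.2% of all genes. Between forskolin with AICAR and control they spanned -0.18 to 0.31 with a median of 0.027 (all genes 0.025), and 58 (64.4%) lay above 0, against 58.5%. In both, the 95% interval of all 90 members lay within a 1.5-fold change, as it did for 97.6% and 97.4% of all genes. A 1.3-fold limit held 88 members (97.8%) in each comparison, against 87.8% and 84.7% of all genes. The median SE was 0.044 for members, 0.056 for all genes and 0.044 for genes with a mean of at least 9. Of those bright genes 94.6% and 94% lay within the 1.3-fold limit. Genes with a mean of at least 9 had median differences of -0.018 and -0.033 in these 2 comparisons, with 40.7% and 33.2% above 0.

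**Figure D3:**
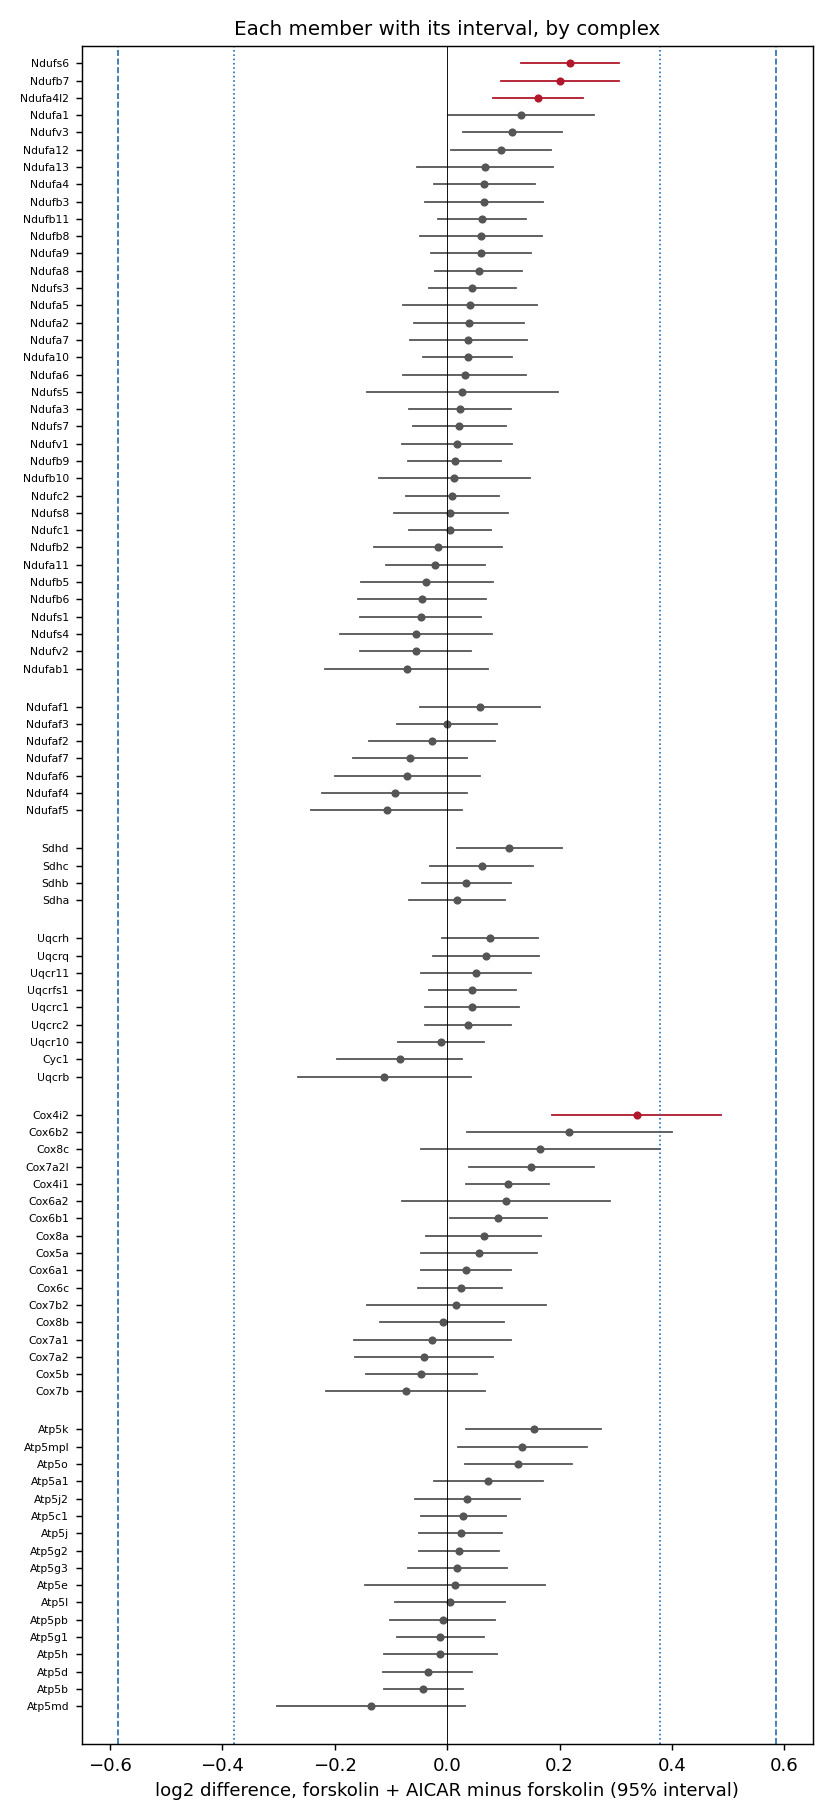
Difference between forskolin with AICAR and forskolin for each of the 90 genes (points) with its 95% interval (lines), by complex, on a log2 scale. Dotted and dashed lines mark 1.3-fold and 1.5-fold changes, and red genes passed the test. All intervals stay inside 1.5-fold, and 88 stay inside 1.3-fold.

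By complex, the medians for forskolin with AICAR minus forskolin were 0.034 for complex I, 0.048 for complex II, 0.045 for complex III, 0.056 for complex IV and 0.018 for the ATP synthase. Against control they were 0.027, 0.043, 0.041, 0.056 and 0.012 in the same order. Quantile normalization moved these medians up with that of all genes, and gave 0.062, 0.067, 0.065, 0.085 and 0.043 against forskolin, with 0.051 for all genes in place of 0.023. Array weights gave 0.031, 0.055, 0.027, 0.022 and 0.018, with 0.016 for all genes. After quantile normalization the medians against control were 0.052, 0.066, 0.067, 0.074 and 0.026, with 0.043 for all genes in place of 0.025. All 4 complex II genes lay above 0 in both comparisons, as did 28 and 24 of 36 in complex I, 6 and 6 of 9 in complex III, 12 and 13 of 17 in complex IV and 11 and 10 of 17 in the ATP synthase. Without control replicate 1 the median against control was 0.004 for complex I and 0.019 for complex III. The medians can also be taken on single arrays, against the control mean of each gene. For complex IV they were 0.061, 0.031 and 0.069 with forskolin and AICAR, 0.014, 0.003 and -0.002 with forskolin, and -0.004, 0.002 and -0.007 in controls. In complex IV each AICAR array lay above the other 6, as it did for the median over all genes, and the median difference from forskolin was 0.029 without AICAR replicate 3 and 0.082 without AICAR replicate 2. For complex I they were 0.055, 0.019 and 0.025 with both agents, 0.000, -0.022 and 0.005 with forskolin, and -0.035, 0.010 and 0.020 in controls, so that the AICAR and control arrays overlapped. Complexes II and III and the ATP synthase overlapped with the controls as well. The same median over all genes was 0.010, 0.012 and 0.037 with forskolin and AICAR, 0.002, 0.000 and 0.009 with forskolin, and 0.000, 0.008 and -0.007 in controls.

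**Figure D4:**
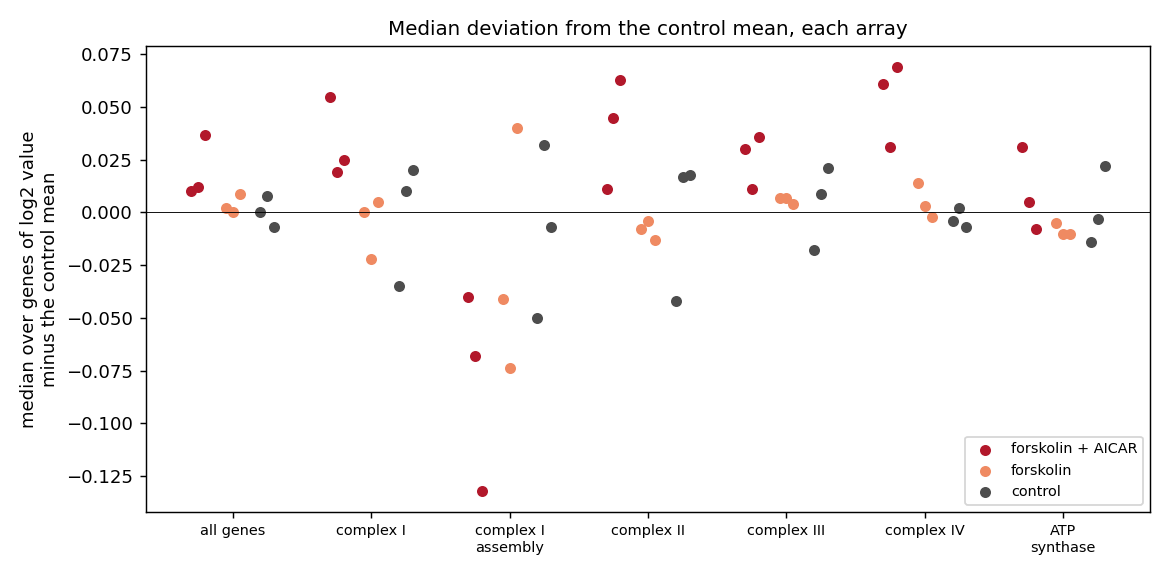
Median over the genes of a complex of the log2 value minus the gene's control mean, 1 point per array, with all genes at the left. Colours are forskolin with AICAR (red), forskolin (orange) and control (grey). Points of complex IV with AICAR lie at 0.031 to 0.069, above the other 6 arrays, and those of the assembly factors at -0.132 to -0.040.

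In complex II, Sdhd, a membrane anchor of succinate dehydrogenase, came nearest to the threshold. It read 10.77, 10.78 and 10.85 with forskolin and AICAR, 10.73, 10.70 and 10.64 with forskolin, and 10.69, 10.76 and 10.73 in controls. The AICAR arrays were the highest, by 0.11 over forskolin (SE 0.041, adjusted p 0.153 in limma). The catalytic subunit gene Sdha differed by 0.02 (SE 0.038). Complex III held both directions: Uqcrh, the hinge protein, stood 0.08 higher with AICAR than with forskolin (SE 0.038, adjusted p 0.245) and Cyc1, cytochrome c1, -0.08 (SE 0.050, adjusted p 0.313, both in limma). Neither passed the test. The core subunits Uqcrc1 and Uqcrc2, which are related to a processing protease, differed by 0.05 and 0.04.

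In the ATP synthase the 3 genes with the highest differences over forskolin were Atp5k, Atp5mpl and Atp5o. Atp5k, subunit e of the membrane part, read 9.32, 9.38 and 9.48 with forskolin and AICAR, 9.28, 9.15 and 9.29 with forskolin, and 9.24, 9.25 and 9.23 in controls. Its AICAR arrays lay above all others, with differences of 0.15 from forskolin (SE 0.053, adjusted p 0.132) and 0.15 from control (SE 0.053, adjusted p 0.0987, both in limma). Atp5o, whose product joins the catalytic head to the stalk, lay 0.13 above forskolin (SE 0.042, adjusted p 0.121 in limma). At the other end, Atp5md, a small membrane subunit, read 12.42, 12.28 and 12.14 with both agents, 12.40, 12.42 and 12.43 with forskolin, and 12.41, 12.39 and 12.59 in controls. Its difference from control was -0.18 (SE 0.074, adjusted p 0.135 in limma), and the groups overlapped. No gene of the catalytic head passed the test. Atp5a1, the alpha subunit, differed from forskolin by 0.07 (SE 0.043), Atp5b, the catalytic beta subunit, by -0.04 (SE 0.032), and Atp5c1, the gamma subunit, by 0.03 (SE 0.034). The 3 genes Atp5g1, Atp5g2 and Atp5g3 code for the same mature subunit c of the rotor ring, and differed by -0.01, 0.02 and 0.02.

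In complex IV the tissue-restricted and general forms included no gene that passed the test against forskolin besides Cox4i2. Cox6b1, the general form of subunit 6B, lay 0.09 above forskolin (SE 0.038, adjusted p 0.189 in limma). Cox7a2l differed from forskolin by 0.15 (SE 0.049, adjusted p 0.119) and from control by 0.04 (SE 0.049, adjusted p 0.61, both in limma). Cox7a1 and Cox7a2 differed from forskolin by -0.03 and -0.04. Cox8a, Cox8b and Cox8c differed by 0.07, -0.01 and 0.17, the last with an SE of 0.094 and an adjusted p of 0.296 in limma. Cox6a1 and Cox6a2 differed by 0.03 and 0.10. Cox5a and Cox5b, which sit on the matrix side of the complex, differed by 0.06 and -0.05.

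The spread between arrays was uneven. The median SD of the members was 0.047 with forskolin and AICAR, 0.033 with forskolin and 0.036 in controls, and an SD over 0.1 was seen in 10, 6 and 4 members in the same order. Within the AICAR group replicate 1 was the highest array for 43 of 90 members and replicate 3 the lowest for 40. Uqcrb, a small subunit of complex III, read 12.51, 12.47 and 12.27 on these arrays, and Ndufab1, the mitochondrial acyl carrier protein, 10.48, 10.52 and 10.25. In the control group replicate 1 was the lowest array for 48 members. The interquartile range of all probes was 3.35 and 3.34 on AICAR replicates 2 and 3 and 3.42 to 3.48 on the other 7 arrays, and its part in these values was not tested. Where a member had further probes, 25 in all for 17 members, none of those probes passed the test in any comparison. Their differences departed from that of the chosen probe by a median of 0.016 to 0.036 and at most 0.14, for Atp5pb. Of the 25, 6 had the opposite sign for forskolin against control, 7 with AICAR against forskolin and 6 with AICAR against control. Ndufs6, Ndufb7, Ndufa4l2, Cox4i2 and Cox6b2 each had 1 probe, so no second probe bears on their calls.

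For the assembly factors Ndufaf1 to Ndufaf7 the median was -0.066 for forskolin with AICAR minus forskolin (0.008 after quantile normalization) and -0.085 for forskolin with AICAR minus control (-0.018 after quantile normalization), with 1 of 7 above 0 in each, and none passed the test. Ndufaf5, which modifies a core subunit of complex I, differed by -0.11 from forskolin (SE 0.060, adjusted p 0.291 in limma). On single arrays the median of the 7 was -0.040, -0.068 and -0.132 with both agents, -0.041, -0.074 and 0.040 with forskolin, and -0.050, 0.032 and -0.007 in controls, so that the groups overlapped.

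Among genes that build or regulate the respiratory chain, each that passed the test was lower with AICAR. Calls over all genes also ran mostly lower, in 4.12% of genes against 0.978% higher for forskolin with AICAR against forskolin, and in 5.68% against 3.04% higher against control. Of 7 complex I assembly genes outside the Ndufaf series, 0 rose and 1 fell against forskolin and the same numbers against control. This was Tmem186, known in human cells as part of the machinery that builds the membrane arm of complex I. It read 7.93, 7.89 and 7.74 with forskolin and AICAR, 8.30, 8.24 and 8.50 with forskolin, and 8.49, 8.41 and 8.51 in controls. The AICAR arrays lay below all others, with differences of -0.50 from forskolin (SE 0.073, adjusted p 0.00444) and -0.62 from control (SE 0.073, adjusted p 0.00141, both in limma). Both calls stood with any 1 array left out. Of 4 complex II assembly genes, Sdhaf1 fell against forskolin, by 0.23 log2 units (SE 0.048, adjusted p 0.0258 in limma), and Sdhaf3 against control, by 0.14 (SE 0.035, adjusted p 0.0412 in limma). Leaving out 1 array ended the call of Sdhaf1 in 4 of 9 cases, with an adjusted p up to 0.0907, and that of Sdhaf3 in 8 of 9, up to 0.127. Quantile normalization ended both calls (adjusted p 0.0616 for Sdhaf1 and 0.212 for Sdhaf3), as did fitting the 2 groups alone (0.0784 and 0.0969, all in limma).

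Of 12 genes for the transcription and upkeep of mitochondrial DNA, 0 rose and 2 fell in each comparison with AICAR, where 4.12% of all genes fell against forskolin and 5.68% against control. The list's median difference from forskolin was -0.068. Polg2 codes for the accessory subunit of the mitochondrial DNA polymerase. It read 7.38, 7.48 and 7.23 with forskolin and AICAR, 7.70, 7.79 and 7.91 with forskolin, and 7.82, 7.78 and 7.82 in controls. The AICAR arrays were all below the rest, by -0.44 against forskolin (SE 0.069, adjusted p 0.00669) and -0.44 against control (SE 0.069, adjusted p 0.00586, both in limma). Twnk, the helicase of the same replication fork, had 7.74, 7.63 and 7.77 with both agents, 8.05, 7.97 and 8.11 with forskolin, and 7.99, 8.10 and 8.04 in controls. It too was lower on every AICAR array, by -0.33 against forskolin (SE 0.053, adjusted p 0.00687) and -0.33 against control (SE 0.053, adjusted p 0.00633, both in limma). The calls of both genes stood with any 1 array left out. Without replicate 3 of every group, Polg2 lost its call against forskolin (adjusted p 0.0684 in limma). In that fit Twnk lost its calls against forskolin and control (adjusted p 0.0873 and 0.0575 in limma). Polg, the catalytic partner of Polg2, differed by -0.04 from forskolin (adjusted p 0.505), and Tfam, which packs the mitochondrial genome, by -0.17 (adjusted p 0.225, both in limma).

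Of 13 regulators of respiratory genes, 0 rose and 2 fell against forskolin, with a median difference of -0.065, and 0 rose and 3 fell against control, with a median of 0.002. Of all genes 4.12% fell in the first of these comparisons and 5.68% in the second. Ppara, a nuclear receptor for fatty acids, read 9.33, 9.24 and 9.22 with forskolin and AICAR, 9.44, 9.52 and 9.52 with forskolin, and 9.43, 9.42 and 9.44 in controls. Its AICAR arrays were below all others, with differences of -0.23 from forskolin (SE 0.041, adjusted p 0.0119) and -0.17 from control (SE 0.041, adjusted p 0.0353, both in limma). Gabpb2, a partner subunit of the ETS factor GABP, differed by -0.18 from forskolin (SE 0.043, adjusted p 0.041) and -0.25 from control (SE 0.043, adjusted p 0.00857, both in limma). Pprc1, a coactivator related to Ppargc1a, fell against control by 0.32 (SE 0.062, adjusted p 0.017) and differed by -0.24 from forskolin (SE 0.062, adjusted p 0.0597, both in limma). Leaving out 1 array ended the Ppara calls in 3 and 6 of 9 cases (adjusted p up to 0.0574 and 0.118), the Gabpb2 call against forskolin in 8 of 9 (up to 0.136) and against control in 0, and the Pprc1 call in 1, without control replicate 1 (0.0554). Both Ppara calls were lost with the 2 groups fitted alone (adjusted p 0.0554 against forskolin and 0.0763 against control), and the one against control after quantile normalization (0.0756). The Gabpb2 call against forskolin was lost in the same fit (0.115), after quantile normalization (0.0724) and after median centring (0.0721, all in limma).

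Ppargc1a was dim, and its arrays read 4.62, 4.64 and 4.82 with forskolin and AICAR, 4.45, 4.55 and 4.44 with forskolin, and 4.55, 4.55 and 4.55 in controls. Its AICAR arrays were above the rest by 0.22 over forskolin (SE 0.056), which missed the threshold (adjusted p 0.0589 in limma). Of the other regulators whose motifs were counted in the promoters, beside the lower Gabpb2, the differences from forskolin were 0.03 for Nrf1, 0.04 for Gabpa, -0.07 for Gabpb1 and 0.01 for Yy1, and none passed the test. None of 6 complex III assembly genes, 16 complex IV assembly genes, 4 ATP synthase assembly and inhibitor genes, 12 genes of the tricarboxylic acid cycle and both cytochrome c genes passed the test in any comparison. Somatic cytochrome c, Cycs, differed by -0.16 from forskolin (SE 0.067, adjusted p 0.198) and -0.23 from control (SE 0.067, adjusted p 0.0619, both in limma). Of the 13 subunits encoded in the mitochondrial genome 2 were measured under their own symbols. ND3 differed by -0.16 and COX2 by -0.11 from forskolin (SE 0.072 and 0.051, adjusted p 0.218 and 0.216 in limma). For forskolin against control no gene of these lists passed the test.

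**Figure D5:**
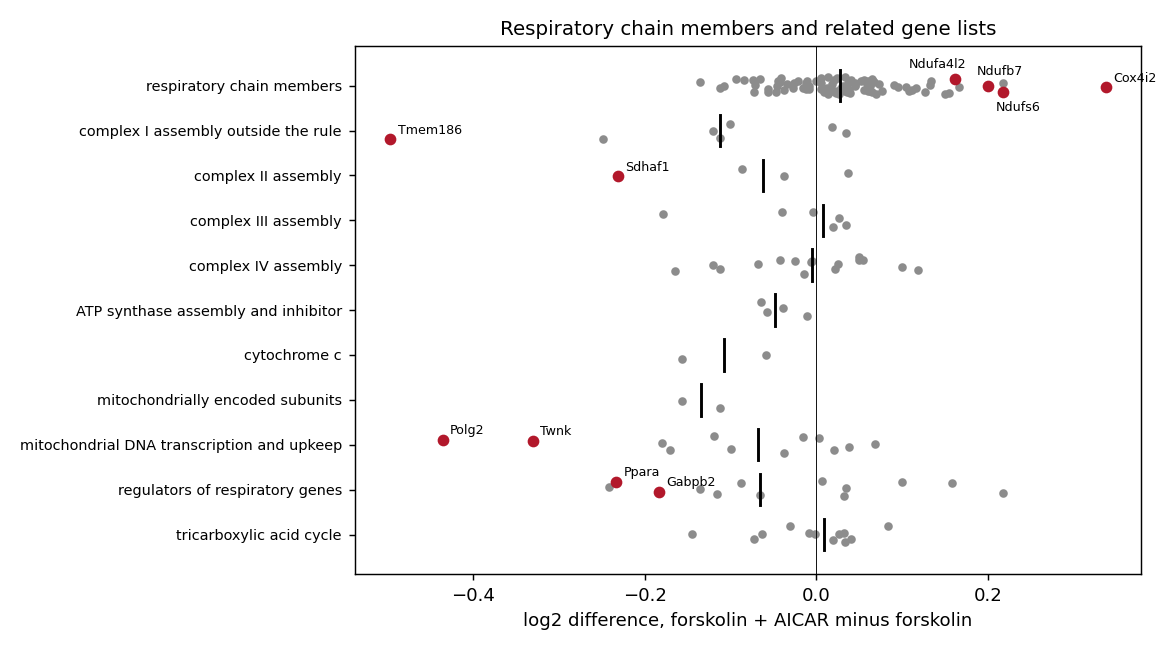
Difference between forskolin with AICAR and forskolin, on a log2 scale, for the 90 members and the genes of 10 related lists (points), with medians (black bars) and genes that passed the test (red, named). The red members lie at 0.16 to 0.34 and the red genes of the lists at -0.50 to -0.18.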

How the data were processed

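Gene expression was measured on 9 Affymetrix whole-transcript arrays of MA-10 cells. Each deposited value is the log2 signal of a transcript cluster, here called a probe, and is credited to RMA and Partek per the submitters' processing notes, with no version or setting given. RMA pulls the arrays to a shared distribution, so a change common to most genes would not show. The array medians were 7.138 to 7.193. Of 35557 probes 21789 carried a single symbol, 1621 several and 12147 none listed, and 999 genes had more than 1 probe. Dim probes were kept. Precision is limited by the number of arrays.

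All 9 arrays were fitted with group means in limma 3.58.1 (R 4.3.3, default eBayes, two-sided), with Benjamini-Hochberg adjustment over the 19938 genes of each of 3 contrasts. The procedure was run on simulated data in which 200 genes were changed by more than any member's difference. It therefore does not bear on the detection of differences as small as those of the members. Medians and counts over members carry no p. All 90 members matched the RefSeq gene table by Entrez identifier. Tables and plots were made in Python 3.11.15 with numpy 2.4.6, pandas 2.3.3 and, for plots, matplotlib 3.10.9.

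The members and lists were chosen with earlier results of these data known. Named genes were the called members, the member with the lowest p and the brightest and dimmest of each complex, paired isoforms, and of each list up to 3 called genes or the one with the lowest p. Genes outside this rule were chosen for their role or after their values were seen. Among members these include those with motifs shown, catalytic, core or ring subunits, Cox5a, Cox5b, Ndufv3, Atp5md, Atp5mpl, Atp5pb and Ndufab1. Outside the members they include Polg, Tfam, Nrf1, Gabpa, Gabpb1, Yy1, Ppargc1a, Star, Sox9, Cd68 and Cdh5. Alternatives were a replicate block, filters at log2 5 and 6, quantile normalization, median centring, a trended robust prior, array weights, only the 2 groups compared, the mean over probes or every probe, other thresholds and each array left out.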

Additional observations from a re-analysis of the deposited data

How the results depend on the processing

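No member passed the test for forskolin against control under any alternative run. For forskolin with AICAR against forskolin the main count of 4 became 1 with the replicate block (Ndufs6), 7 after quantile normalization, 14 with array weights, 0 with only the 2 groups compared, 0 at an adjusted p under 0.01, and 0 to 7 with 1 array left out. Against control the count of 3 became 0 with the replicate block, 1 with the 2 groups compared, 10 with array weights, 0 at the stricter threshold, and 0 to 6 with 1 array left out. The shared replicate numbers are no pairing known from the labels. Deviations of same-numbered arrays correlated at 0.244, 0.013 and 0.329 between forskolin and control but at -0.406 to 0.083 between the AICAR group and the others, so the numbers were not taken as pairs. Of 20 calls of named genes, the replicate block ended 11: against forskolin those of Ndufb7, Ndufa4l2, Cox4i2, Sdhaf1, Ppara and Gabpb2, and against control those of Ndufs6, Ndufb7, Cox6b2, Sdhaf3 and Ppara. Without replicate 3 of every group, chosen after seeing the data, both counts were 0, 17 of the 20 calls ended, and the medians of forskolin minus control were 0.008 for the ATP synthase and, with AICAR against forskolin, -0.005 for the assembly factors and 0.032 for complex IV. Over all genes the counts of 138, 1017 and 1739, for forskolin against control and for forskolin with AICAR against forskolin and against control, became 83, 583 and 874 with the replicate block, 436, 5729 and 6619 with array weights, 110, 496 and 758 with 2 groups, 43, 241 and 377 without replicate 3, 72, 409 and 502 at 0.01, 183, 1820 and 3756 at 0.1, and 76 to 144, 487 to 3324 and 660 to 4741 with 1 array left out. Of the values of single named genes under the alternatives, 2406 stayed on their side of the threshold, 111 lost the call and 28 gained it, and 0 called values changed sign. Fewer arrays lower the power of the test, and the cause of the other shifts was not tested.

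Medians of log2 differences moved as follows. Median centring gave, for forskolin minus control, -0.031 over members, -0.030 for complex I, -0.039 for II, -0.027 for III, -0.023 for IV and -0.040 for the ATP synthase. With AICAR against forskolin it gave 0.049 over members, 0.065 for III, 0.077 for IV and 0.039 for the ATP synthase. Quantile normalization gave in that comparison 0.055 over members, 0.062 for I, 0.008 for the assembly factors, 0.065 for III, 0.085 for IV and 0.043 for the ATP synthase, and against control 0.050, 0.052 for I, -0.018 for the assembly factors, 0.067 for III and 0.074 for IV. Array weights gave -0.049 for the assembly factors in forskolin minus control, 0.027 for III and 0.022 for IV against forskolin, and 0.029 for IV against control. With 1 array left out, medians that moved ran between -0.058 and 0.013 for the assembly factors in forskolin minus control; between 0.026 and 0.048 for III and 0.029 and 0.082 for IV against forskolin; and against control between 0.008 and 0.032 over members, 0.004 and 0.044 for I, 0.019 and 0.051 for III and 0.044 and 0.080 for IV.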
